A study of Homo sapiens with 23 samples.

Results

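ATF4 and 9 genes that act with it or after it in the integrated stress response were followed in SCi-NCCITs with and without doxycycline. The 10 genes were taken from a list by name. They comprise 4 transcription factors (ATF4, ATF3, ATF5 and DDIT3) and 6 effectors (DDIT4, TRIB3, CHAC1, SESN2, ASNS and PPP1R15A), out of 25197 genes with any count in the RNA-seq libraries. All 10 passed the filter on low counts, which left 16370 genes for testing.

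SCi-NCCITs derive from NCCIT, an established human embryonal carcinoma line with stem cell-like properties. They carry a tetracycline-inducible dCas9-KRAB (a catalytically dead Cas9 fused to a repressive domain), selected with puromycin, and a pair of constitutive sgRNAs, selected with geneticin, which lead it to SVA retrotransposons. RNA was sequenced from 3 libraries of cells without doxycycline and from 3 libraries of cells given 2 µg/mL doxycycline for 72 hours, and libraries of both conditions come from stably transfected cells that hold the dCas9-KRAB and both sgRNAs. Stable clones were isolated, and how many of them entered the libraries is not given in the sources used here. The comparison asks what changes in the transcriptome when SVAs are repressed. No library came from cells that received doxycycline but lacked dCas9-KRAB or the sgRNAs, so in these data the drug and the repression of SVAs cannot be told apart. Doxycycline is known to inhibit mitochondrial translation, and the sgRNAs also match LTR5Hs elements.

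In the integrated stress response, a family of kinases (PERK, GCN2, PKR and HRI) phosphorylates the translation initiation factor eIF2. General translation then slows, while short upstream reading frames in the ATF4 mRNA let ATF4 protein accumulate, so that ATF4 is controlled largely at the level of translation. ATF4, a bZIP factor that pairs with C/EBP proteins, activates genes of amino acid uptake and synthesis, its own family members ATF3, ATF5 and DDIT3 (CHOP), and feedback genes such as PPP1R15A (GADD34), which recruits a phosphatase to eIF2. The files hold mRNA levels and peaks, and protein was not analysed here.

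The RNA libraries held 14683468, 31905915 and 43443469 estimated counts on genes without doxycycline and between 44680610 and 47862394 with it. The first library without doxycycline was thus the shallowest. In the test over all genes (edgeR's quasi-likelihood test with Benjamini-Hochberg adjustment, threshold 0.05), 17.5% of the genes were called, 8.97% as higher and 8.49% as lower with doxycycline, and the median log2 fold change over all genes was −0.003. ZNF10, whose KRAB domain is the usual source of the one fused to dCas9, served as the check on induction and had 10.8 ± 0.882 CPM (counts scaled to library size, SD, n = 3) without doxycycline and 398 ± 52.9 CPM with it (log2 fold change 5.19). Of 10 markers of pluripotent cells 6 were called lower (TDGF1 by 1.13 and NANOG by 0.57 on the log2 scale), and their summed level was 1702 to 1884 TPM (a level scaled to transcript length and library size) without doxycycline and 1305 to 1461 TPM with it. Of 17 markers of differentiated cells 10 were tested. Of these, 7 had a positive log2 fold change and 3 a negative one, with a median of 0.37. The 2 that were called, GATA6 and MIXL1, were higher and had means under 4 CPM. MIXL1 lost its call without the second or the third library of either condition. The summed level of the 17 was 79.8 to 103.7 TPM without doxycycline and 76.7 to 87.8 TPM with it. The part of these shifts in the values below was not tested. In bulk RNA, fewer cells that express a gene and less of its RNA per cell cannot be told apart, and the p-values measure only the spread between these libraries, since nothing in the labels says that they came from separate cultures.

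The octamer TGATGNAA, the core of the composite C/EBP-ATF response element that ATF4 binds with its partners, was searched on both strands from 500 bases before to 50 bases after the start of the most abundant transcript of each gene. Of the 10 genes 5 held it, while 4.25% of the 16370 promoters of the genes tested did. The sites are shown because they mark which of the genes hold these letters in the window around that annotated start. Whether ATF4 binds at them was not tested. Each line gives 30 bases of hg19 in the direction of the gene, with the octamer or its reverse complement in capitals.

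ATF3, first site: cctccccgaacTTGCATCAccagtgccccc
ATF3, second site: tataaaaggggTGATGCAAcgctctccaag
DDIT3: gttgccaaacaTTGCATCAtccccgccccc
CHAC1: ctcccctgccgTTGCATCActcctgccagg
SESN2: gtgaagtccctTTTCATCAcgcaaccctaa
ASNS: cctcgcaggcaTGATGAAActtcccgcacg

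The ATF3 sites lie at chr1:212781889-212781918 and chr1:212782071-212782100 on the plus strand, and their octamers begin 203 and 21 bases before the start site. The DDIT3 site (chr12:57914585-57914614, minus strand) begins 306 bases before the start, and the CHAC1 site (chr15:41245449-41245478, plus strand) 209 bases before it. In SESN2 (chr1:28585722-28585751, plus strand) and ASNS (chr7:97501770-97501799, minus strand) the octamer begins 296 and 68 bases before the start. All the sites are thus upstream of the transcribed region of that transcript. The octamer is TTGCATCA or TGATGCAA in ATF3, DDIT3 and CHAC1, whereas ASNS and SESN2 hold TGATGAAA and TTTCATCA. In ATF4, ATF5, DDIT4, TRIB3 and PPP1R15A these letters were not found in this window.

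With doxycycline, 4 of the 6 effectors were called lower, and 0 of the 4 transcription factors were called in either direction. The fold changes of all 6 effectors and of 2 transcription factors (ATF4 and ATF5) were below 1, but only those 4 passed the test. ASNS, CHAC1, SESN2 and DDIT4 fell by 28.8%, 40.6%, 23.6% and 31.4% in the fit, whereas ATF4 itself was at 0.988 times its level without doxycycline, with a 95% interval that spans 1. The median log2 fold change was −0.44 over the effectors and 0.06 over the transcription factors. The difference of these medians was 0.50, and no test was made of the groups, because they were chosen with earlier results of these data known.

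**Figure D1:**
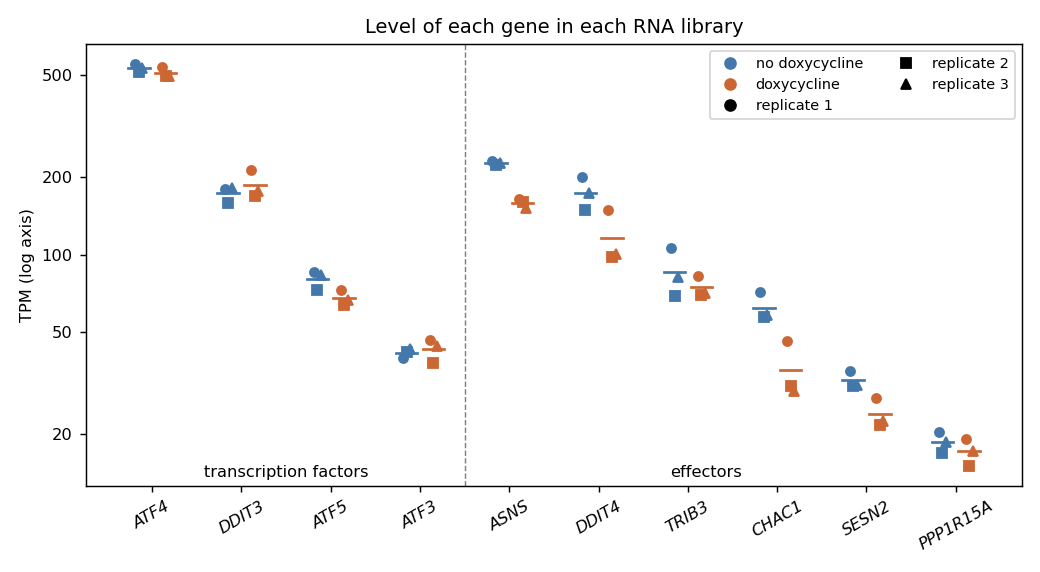
Level of each of the 10 genes in each RNA library, in TPM on a log axis, with replicates 1 to 3 as circles, squares and triangles, cells without doxycycline in blue and with doxycycline in orange. Short lines are group means, and ATF4 lies near 500 TPM in both conditions while CHAC1, SESN2 and ASNS have no doxycycline library as high as the lowest library without it.

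Among the transcription factors, ATF4 (ENSG00000128272, hg19 chromosome 22, 39915700 to 39918688, plus strand) was by far the most abundant. It was measured at 551.6, 515.4 and 530.8 TPM in the 3 libraries without doxycycline and at 536.2, 493.7 and 495.4 TPM in the 3 with it. The groups overlapped, since the first doxycycline library lay between the first and the third library without the drug, and the other doxycycline libraries were the lowest of the 6. The mean was 532.6 ± 18.2 TPM (SD, n = 3) without and 508.4 ± 24.1 TPM with doxycycline. The log2 fold change was −0.02 with a standard error of 0.062 and an adjusted p of 0.872 (edgeR), and its 95% interval ran from 0.897 to 1.09 times the level without doxycycline. ATF4 lay at the 98.8th percentile of all genes tested by TPM. Most of its counts, 90.3% without and 89.8% with doxycycline, were assigned to transcript ENST00000396680. Its 4 annotated pseudogenes held 130 counts over all libraries against 119214 for ATF4.

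DDIT3 (CHOP, a bZIP factor linked to cell death under prolonged stress, chromosome 12, 57910371 to 57915520, minus strand) had 179.4, 159.6 and 181.7 TPM without doxycycline and 214.1, 169.5 and 176.8 TPM with it. The first library with doxycycline was the highest of the 6, and the other two lay among those without. The log2 fold change was 0.15 with a standard error of 0.096 and an adjusted p of 0.31 (edgeR), with an interval from 0.956 to 1.29 times. DDIT3 overlaps MARS1 by 982 bp and MBD6 by 1028 bp on the opposite strand, and these neighbours held 107062 and 16106 counts against 23894 for DDIT3. The libraries were made with a directional kit, but whether kallisto was told the strand is not given in the sources used here, so the level of DDIT3 is uncertain to that extent.

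ATF3, a stress-induced repressor and activator of the same bZIP family (chromosome 1, 212738676 to 212794119, plus strand), had 39.49, 41.9 and 42.94 TPM without doxycycline and 46.69, 38.02 and 43.99 TPM with it. The lowest and the highest library were both doxycycline libraries. Its log2 fold change was 0.14 with a standard error of 0.074 and an adjusted p of 0.214 (edgeR), which leaves an interval from 0.984 to 1.24 times.

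ATF5 (chromosome 19, 50431959 to 50437192, plus strand), a factor linked to the mitochondrial unfolded protein response, was the transcription factor nearest to the threshold. It had 85.44, 72.94 and 83.09 TPM without doxycycline and 73.03, 63.57 and 66.88 TPM with it. The groups overlapped only in that the first doxycycline library was slightly above the second library without doxycycline. The log2 fold change was −0.19 with a standard error of 0.084, an unadjusted p of 0.0489 and an adjusted p of 0.152 (edgeR), and it missed the threshold. ATF5 overlaps NUP62 by 1063 bp on the opposite strand (22236 counts against 22097 for ATF5), with the same limit on strand as for DDIT3.

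Among the effectors, ASNS had the smallest spread and the smallest p. ASNS, the enzyme that makes asparagine from aspartate and glutamine (chromosome 7, 97480989 to 97501854, minus strand), had 231.1, 224.3 and 227.9 TPM without doxycycline and 165, 159.9 and 152.5 TPM with it. The 3 libraries of each condition lay within a few percent of each other (coefficient of variation 1.49% and 3.96%), and the groups did not overlap. The level fell to 0.712 times (95% interval 0.653 to 0.776), a log2 fold change of −0.49 with a standard error of 0.055 and an adjusted p of 0.000491 (edgeR). The most abundant transcript of ASNS, ENST00000394308, took 42.7% of the gene's counts without and 40.8% with doxycycline, and the share of the minor transcript ENST00000175506 was 2.79% without and 4.33% with it. The 6 pseudogenes of ASNS held 1777 counts against 55220 for the gene, or 3.22%.

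CHAC1, which degrades glutathione (chromosome 15, 41245160 to 41248710, plus strand), had the largest decrease of the 10 genes. It was measured at 71.44, 56.99 and 58.47 TPM without doxycycline and at 46.33, 30.71 and 29.62 TPM with it. The groups did not overlap, but the first library was the highest in each condition and the doxycycline libraries differed widely (coefficient of variation 26.3%). The level fell to 0.594 times (95% interval 0.456 to 0.773), a log2 fold change of −0.75 with a standard error of 0.17 and an adjusted p of 0.0161 (edgeR). Without the second doxycycline library the log2 fold change was −0.68 and the adjusted p was 0.0776.

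SESN2, a leucine sensor that restrains mTORC1 (chromosome 1, 28586029 to 28609002, plus strand), had 35.36, 30.91 and 31.07 TPM without doxycycline and 27.66, 21.78 and 22.49 TPM with it. Every doxycycline library was below every library without the drug. The level fell to 0.764 times (95% interval 0.655 to 0.891), a log2 fold change of −0.39 with a standard error of 0.098 and an adjusted p of 0.0262 (edgeR). The call was lost without the first or the third library of cells without doxycycline (adjusted p 0.054 and 0.0642) and without the second or the third doxycycline library (0.109 and 0.065).

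DDIT4 (REDD1, also a brake on mTORC1, chromosome 10, 74033678 to 74035794, plus strand) had 200.3, 149 and 173.8 TPM without doxycycline and 149.2, 98.14 and 100.2 TPM with it. The first doxycycline library was level with the lowest library without doxycycline, so the groups overlapped, and the other doxycycline libraries were clearly lower. The log2 fold change was −0.54 with a standard error of 0.16 and an adjusted p of 0.0498 (edgeR), just under the threshold. With DESeq2 the adjusted p was 0.106, and the call was also lost without the first or the third library of cells without doxycycline (0.107 and 0.124) and without the second or the third doxycycline library (0.176 and 0.116).

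TRIB3, a pseudokinase that dampens ATF4 and AKT signalling, and PPP1R15A were the effectors that were not called. TRIB3 (chromosome 20, 343479 to 378203, plus strand) had 106.3, 69.2 and 82.1 TPM without doxycycline and 82.74, 69.93 and 71.02 TPM with it. The doxycycline libraries all lay inside the range of the others, and the log2 fold change was −0.16 with a standard error of 0.14 and an adjusted p of 0.484 (edgeR). PPP1R15A (chromosome 19, 49375469 to 49379316, plus strand) had 20.46, 16.91 and 18.68 TPM without doxycycline and 19.13, 15.1 and 17.28 TPM with it, which gave a log2 fold change of −0.06 with a standard error of 0.10 and an adjusted p of 0.708 (edgeR). The intervals of both span 1, from 0.718 to 1.12 times for TRIB3 and from 0.82 to 1.12 times for PPP1R15A.

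**Figure D2:**
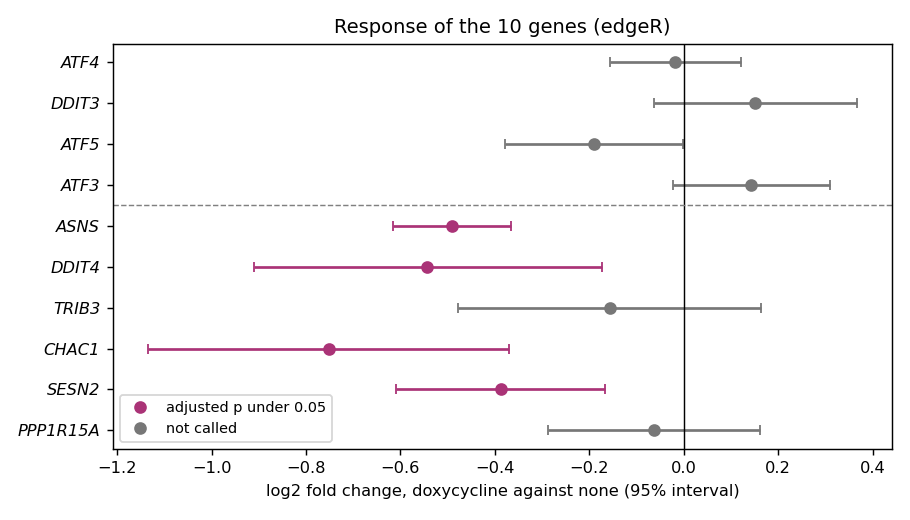
Log2 fold change with doxycycline (x axis) for the 10 genes, transcription factors above the dashed line and effectors below it, with 95% intervals from edgeR. The intervals of ASNS, DDIT4, CHAC1 and SESN2, drawn in purple, lie wholly below 0 and are called after adjustment, and ATF4 lies at −0.02.

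In CPM, the groups did not overlap for 3 of the 10 genes (ASNS, CHAC1 and SESN2), while they did not overlap for 37.0% of all genes tested. The share of effectors called lower, 4 of 6, stands against the 8.49% of all genes, and the share of transcription factors called, 0 of 4, against 17.5%. Among only 4 genes, 0 calls does not set the transcription factors apart from that share. An unadjusted p under 0.05 was found for 5 of the 10 genes (the 4 called ones and ATF5).

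The order of the levels changed between the conditions. Without doxycycline ATF4 (532.6 ± 18.2 TPM) was followed by ASNS (227.8 ± 3.39), DDIT4 (174.4 ± 25.7) and DDIT3 (173.6 ± 12.2), and DDIT4 and DDIT3 did not differ beyond their spread. TRIB3 (85.9 ± 18.9 TPM) overlapped ATF5 (80.5 ± 6.64) and CHAC1 (62.3 ± 7.95), and below them stood ATF3 (41.4 ± 1.77), SESN2 (32.5 ± 2.53) and PPP1R15A (18.7 ± 1.77), whose ranges did not overlap. With doxycycline DDIT3 (186.8 ± 23.9 TPM) stood above ASNS (159.1 ± 6.3) and DDIT4 (115.8 ± 28.9), with no library of ASNS as high as the lowest of DDIT3. CHAC1 (35.6 ± 9.35 TPM) had moved below ATF3 (42.9 ± 4.44), although their ranges overlapped. These levels are TPM, which allow genes of different length to be compared, and all SDs are over 3 libraries.

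The medians of the transcription factors and of the effectors lay further apart in the doxycycline libraries, although single genes of both classes overlapped. When each gene was expressed as its log2 CPM minus its mean without doxycycline, the median of the transcription factors minus that of the effectors was −0.11, 0.04 and 0.06 in the libraries without doxycycline. The same difference was 0.34, 0.47 and 0.51 in the libraries with doxycycline (SD 0.089, n = 3). The 3 doxycycline libraries thus all lay above the 3 others. Subtracting each gene's mean without doxycycline holds the values of those libraries around 0, so this restates the fold changes per library. The choice of genes with results known also makes it a description only. TRIB3 and PPP1R15A, the effectors that were not called, lay above ATF5 in all 3 doxycycline libraries.

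Within a condition the 10 genes varied together. All 10 were above their group mean in the first library of each condition, where 50.9% and 50.7% of all genes tested were. Of the 10, 8 without doxycycline and 10 with it had their highest CPM there, where 39.8% and 34.9% of all genes tested had theirs. The second library without doxycycline was the lowest for all 10, and the third doxycycline library was the lowest for 8. After removal of the group means, Pearson's r between pairs of the 10 genes over the 6 libraries ranged from 0.43 (ATF3 with ASNS) to 0.985 (CHAC1 with SESN2). These correlations share the same libraries and their depth, and they rest on 6 points centred within their condition. Neither r between other genes nor the share of all genes lowest in these libraries was computed, so both lack a background. CHAC1, DDIT4 and SESN2 had their smallest decrease in the first doxycycline library (−0.37, −0.17 and −0.18 on the log2 CPM scale against the mean without doxycycline), whereas ASNS was at −0.45, −0.46 and −0.56 in the 3 libraries.

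**Figure D3:**
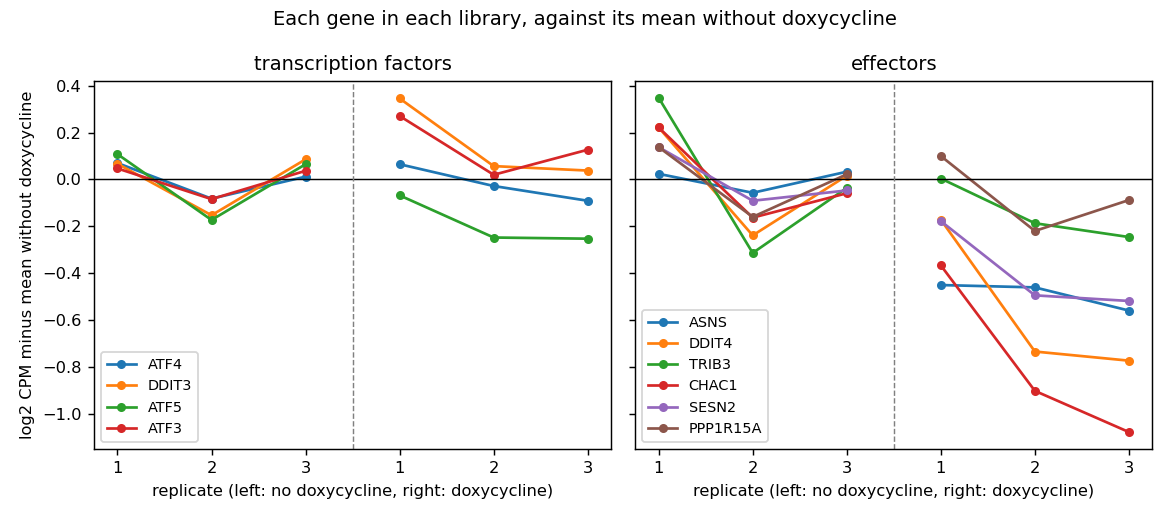
Log2 CPM of each gene in each library minus its mean over the 3 libraries without doxycycline (y axis), with transcription factors on the left and effectors on the right. Lines join the points of a gene within a condition and imply no order of replicates, and the first library of each condition is above its condition's mean for all 10 genes.

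Over the 6 libraries, the genes whose log2 CPM was most like that of ATF4 were, among the 9994 genes whose mean reached 10 CPM, ZNF76 (Pearson's r 0.987), BBC3 (0.984) and C11orf96 (0.984). None of these was called, with adjusted p values from edgeR of 0.939, 0.911 and 0.978. The genes most like ASNS were NOA1 (r 0.999), NET1 (0.999) and F2RL1 (0.998), and F2RL1 was the one with the largest decrease, from 34.08, 32.14 and 35.19 CPM to 19.7, 20.39 and 17.41 CPM. These r values rank genes over the same 6 libraries and carry no test.

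Other genes of the pathway were read from lists, with the effectors and transcription factors left out. Some genes stand in more than 1 list, so the lists are not independent. Of all genes tested 8.97% were called higher and 8.49% lower. Upstream of ATF4, 1 of 17 tested genes for the eIF2 kinases, eIF2, eIF2B and their regulators was called higher and 1 lower, with a median log2 fold change of 0.005 beside the median of −0.003 over all genes. EIF2B2, a subunit of the exchange factor for eIF2, rose by 0.28 on the log2 scale (34.4 ± 2.1 to 42 ± 1.56 CPM), and EIF2S3, the gamma subunit of eIF2, fell by 0.38 (371.6 ± 3.1 to 286 ± 3.96 CPM). The 4 kinase genes EIF2AK1 to EIF2AK4 were not called. Of 18 tested bZIP factors that can pair with ATF4, 3 were called lower and none higher, with a median of −0.001 and with NFE2L3 (adjusted p 0.00397) and MAF (0.00538) having the smallest p values in edgeR. Among 14 family relatives of the 10 genes the only call was SESN3, a sestrin like SESN2. It fell from 343.5 ± 55.8 to 253.4 ± 20.1 CPM (log2 fold change −0.44). The relatives' median was −0.10, and SESN3 was no longer called without the second or the third library of cells without doxycycline, or without the first or the second with it. EIF2B2 was not called without the second library of either condition.

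Downstream of ATF4, the other target genes were called lower more than higher. Of 29 tested, 9 were called lower and none higher, with a median of −0.15, beside 8.49% and 8.97% of all genes tested. SLC7A11, the cystine transporter, had 217.7, 255.4 and 261.5 CPM without doxycycline and 128.6, 145.6 and 164.2 CPM with it. Every doxycycline library was lower, with a log2 fold change of −0.75, a standard error of 0.098 and an adjusted p of 0.00115 (edgeR), which is of the size of that of CHAC1. SLC7A1, a transporter of cationic amino acids, fell from 87.7 ± 1.49 to 69 ± 3.53 CPM. The number called lower was 4 without the third library of cells without doxycycline, 5 without the second doxycycline library and up to 7 without any other library, and leaving out the first library without doxycycline gave 1 call in the other direction.

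The enzymes of serine synthesis and one-carbon metabolism, which ATF4 is also known to drive, had 4 of 9 called lower and none higher (median −0.24). The shares over all genes tested were 8.49% lower and 8.97% higher. MTHFD2 and MTHFD1L, mitochondrial enzymes of the folate cycle, fell by 0.30 and 0.26 on the log2 scale with adjusted p values of 0.00639 and 0.00753 (edgeR). Of 20 cytosolic aminoacyl-tRNA synthetases 9 were called lower and none higher (median −0.15), with WARS1 and TARS1 falling by 0.35 and 0.25. The number called lower was 2 without the second or the third library of cells without doxycycline, 4 and 5 without the first and the second doxycycline library, and 5 with counts scaled by transcript length. Leaving out the first library without doxycycline or the third with it gave 1 call in the other direction. Under the alternatives that keep all libraries, up to 1 was called higher. MARS1, 1 of the 9, overlaps DDIT3 as stated above.

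In the other arms of the unfolded protein response the calls lay in the other direction. Of 23 tested genes of the IRE1 and ATF6 arms, 10 were called higher and none lower (median 0.16). The shares over all genes tested were 8.97% higher and 8.49% lower. MANF, a secreted protein of the endoplasmic reticulum, rose from 42.7 ± 2.47 to 60.7 ± 4.85 CPM, and DNAJB11, a co-chaperone of BiP, rose from 111.9 ± 3.24 to 140.6 ± 2.46 CPM, with adjusted p values of 0.00197 and 0.00277 (edgeR). No gene of this list was called lower in any of the alternative fits, and between 6 and 10 were called higher. Of 12 genes of the mitochondrial unfolded protein response 1 was called higher (TIMM17A) and 2 lower, HSPD1, the mitochondrial chaperonin, by 0.48 and CLPX by 0.30 on the log2 scale (median 0.05). Of the 13 mitochondrially encoded mRNAs 10 were called higher and none lower (median 0.39), with MT-CYB and MT-ND3 rising by 0.98 and 0.72, and 6 were called higher without the second doxycycline library. Summed over the 13, they took 68220 to 87020 TPM without doxycycline and 92890 to 105800 TPM with it, and the part of this shift in the TPM of the other genes was not tested.

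Lists for other stress programmes that share members of the set were nearer to the background of 8.97% called higher and 8.49% lower. Of 18 tested p53 targets 1 was called (AEN, lower, median −0.006), and of 15 hypoxia targets 2 were called higher (P4HA2 and ALDOC) and 1 lower (ADM), with a median of −0.008. ALDOC lost its call without the second library of cells without doxycycline and ADM without the second doxycycline library, and leaving out the first doxycycline library gave 2 p53 targets called lower. Of 12 immediate early genes, a group in which ATF3 is often counted, 2 were called lower (KLF4 and KLF6, median −0.09), but 4 without the second library of cells without doxycycline and 1 without the third of these or the second doxycycline library. Around SESN2 and DDIT4, 2 of 21 genes of mTORC1 and its GATOR regulators were called higher (SEC13, by 0.46, and CASTOR1, by 0.53) and 2 lower (SEH1L, by 0.33, and TSC2, by 0.21), with a median of 0.001. SEC13 and SEH1L are both subunits of GATOR2, the complex that SESN2 binds. Among the fits that left out a library, TSC2 kept its call only without the third library of cells without doxycycline.

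As a readout that the gene list did not use, deposited ChIP-seq peaks from SCi-NCCITs of the same conditions were counted where any base of a peak lay within 1 kb of the annotated 5′ end of a gene, so that a summit can lie further off. YY1 and H3K9me3 had 2 libraries per condition and OCT4 had 1. YY1, a transcription factor studied here for its binding to SVAs, had a peak in both libraries at 8 of the 10 genes without doxycycline and at 8 with it, where 55.1% and 62.5% of all genes tested had a peak. ATF4 had the strongest, with fold enrichments of 58.5 and 47 without doxycycline and 63.8 and 66.1 with it, and the summits of these broad peaks lay 1349 to 1360 bp downstream of its 5′ end. DDIT4 followed with 14.6 and 12.7 without and 13.1 and 16.2 with doxycycline. The other 6 genes ranged from 3.34 to 9.17, and in the first libraries of DDIT3 the summits lay 1220 and 1711 bp downstream of the 5′ end. These distances are from the outermost annotated 5′ ends (39915700 for ATF4 and 57915520 for DDIT3). The most abundant transcripts of both genes start further inside, at 39916581 and 57914297, and these summits lie nearer to those starts.

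ASNS, called lower in the RNA, had YY1 enrichments of 8.96 and 4.19 without doxycycline and 5.48 and 3.34 with it, and the ranges overlapped. CHAC1 had 6.17 and 5.54 without and 8.19 and 6.4 with doxycycline. ATF3 had a YY1 peak in 1 doxycycline library only and TRIB3 in none, but both are genes with several annotated starts, and with any annotated start counted all 10 genes had a YY1 peak in both libraries of each condition (64.4% and 72.4% of all genes). The peak lists give no read depth, and with 2 libraries per condition no test was made.

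OCT4, the pluripotency factor, had a peak at 6 of the 10 genes (ATF4, ATF5, DDIT3, CHAC1, SESN2 and ASNS) in its library without doxycycline and at 0 of 10 in its library with doxycycline. Over all genes tested the share fell likewise from 38.1% to 4.43%, and at a −log10 q of at least 5 the library without doxycycline had a peak at 1 of the 10 genes (23.3% of all genes). Within 500 bp of the 5′ end it was 3 of 10 (33.9%). With any annotated start counted, it was 8 of 10 without doxycycline (47.0%) and 0 of 10 with it (9.44%). Within 5 kb of the 5′ end it was 7 of 10 (48.0%) and 2 of 10 (11.5%). There was 1 library per condition, so the loss cannot be told apart from a difference between these libraries. H3K9me3, the repressive mark that KRAB brings, had a peak in both libraries of a condition at none of the 10 genes, with shares over all genes of 3.41% without and 2.99% with doxycycline. At DDIT4 the first H3K9me3 library of each condition had a peak (fold enrichment 3.32 without and 7.68 with doxycycline, chr10:74034491-74035512 in the latter), and the second libraries had none. NCCITs without dCas9-KRAB had no H3K9me3 peak at any of the 10. With any annotated start counted, the first H3K9me3 library had a peak at 2 of the 10 genes without doxycycline (14.5% of all genes) and 2 with it (12.1%). The second libraries again had none. Within 5 kb of the 5′ end, 1 of the 10 had a peak in both libraries without doxycycline (16.0%) and 0 with it (14.1%). In NCCITs without dCas9-KRAB it was 1 of 10 within 5 kb (15.5%).

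De-repressed SVAs are those that the study classed as depleted of H3K9me3 in induced pluripotent stem cells. PPP1R15A was the only one of the 10 genes with such an SVA within 50 kb of its 5′ end, while 3.84% of all genes tested had one. The distances rest on 635 of the 751 listed intervals, those on assembled chromosomes, and the other 116 lie on alternate haplotype or random contigs and give no distance here. This SVA, an SVA_D of 390 bp, lay 14.3 kb from PPP1R15A. It carried H3K9me3 peaks in both doxycycline libraries, with fold enrichments of 8.11 and 7.04, and none in the libraries without doxycycline or in NCCITs without dCas9-KRAB. No YY1 or OCT4 peak was listed over it. PPP1R15A was not called in the RNA, and for the genes that were called the nearest such SVA was 405.5 kb (SESN2), 792.2 kb (CHAC1), 1441 kb (DDIT4) and 1522 kb (ASNS) away, beside a median of 1450 kb over all genes tested. The sgRNAs can also target other annotated SVAs and LTR5Hs elements, and distances to those were not computed.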

How the data were processed

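RNA was measured in 6 libraries and H3K9me3, YY1 or OCT4 ChIP-seq in 11, and groups were taken from the labels. RNA was poly(A)-selected and made into libraries with a directional kit. For each transcript the deposited files hold an estimated count and a TPM from kallisto, whose version and strand setting are not given in the sources used here. The paper also describes STAR and DESeq2. Transcripts were assigned to genes through GENCODE v44lift37 (88.21% matched, with 95.85 to 95.96% of the counts), and the rounded gene sums were tested in R 4.3.3. The test was edgeR 4.0.16's quasi-likelihood F-test after filterByExpr and TMM, with Benjamini-Hochberg adjustment over 16370 genes and a threshold of 0.05. Between libraries of a condition the chi-square per gene was 7.43 to 14.6. On data simulated for this comparison (16166 genes), edgeR recovered 166 of the 193 with a true log2 change of 1 and made 7 false calls. The 10 genes had smaller changes, the largest −0.75 for CHAC1, so this does not show how often such changes are recovered.

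For ChIP-seq the authors trimmed reads, aligned them to hg19 with BWA MEM, kept mapping qualities over 10, removed duplicates and called peaks per library at a 5% FDR. The deposited lists give each fold enrichment as a ratio and p- and q-values as −log10. Depth is unknown there. The de-repressed SVAs were intervals listed in the study's supplement, and the 635 of 751 on assembled chromosomes were used.

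The members and lists were chosen with earlier results of these data known. The genes named were the 10 members, the 2 called genes with the smallest adjusted p in each direction of each list, ZNF10, and the 3 genes most like ATF4 and ASNS. SLC7A11 and other listed genes fall under the same rule, and EIF2AK1 to EIF2AK4 were named after their values were seen. A table of YY1 HiChIP contacts was not used, because its 16 columns named by category could not be assigned to conditions. Alternatives were DESeq2 1.42.0, its size factors, no filter, at least 10 counts in every library, length-scaled counts, limma 3.58.1 on log2(TPM + 1), protein-coding transcripts only, a replicate block, leaving out each library, and for peaks a −log10 q of at least 5, other windows and any annotated start. Overlaps and sequences were computed in Python 3.11.15 with pandas 2.3.3 and pysam 0.24.0.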

Additional observations from a re-analysis of the deposited data

How the results depend on the processing

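The number of genes called was 1878 with length-scaled counts and 1727 with limma on log2(TPM + 1), against 2858 in the comparison reported, and it ranged from 1396 to 3260 when a library was left out. Of the 10 genes 3 or 4 were called under the alternatives that keep all libraries, and between 1 and 4 when a library was left out, all of them effectors called lower. None of the transcription factors was called in any of the 14 alternatives, and ASNS was called in all 14 (log2 fold change −0.52 to −0.46). CHAC1 lost its call only without the second doxycycline library. DDIT4 also lost it with length-scaled counts (adjusted p 0.0652), limma (0.0533) and protein-coding transcripts only (0.0604). The cause was not tested. Of the 6 genes not called, ATF3, ATF5 and DDIT3 kept their sign when a library was left out, and the other 3 changed it, between −0.065 and 0.02 for ATF4, −0.302 and 0.027 for TRIB3 and −0.156 and 0.01 for PPP1R15A.

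The labels do not say whether the replicate numbers pair the samples. Deviations of libraries with the same number correlated at 0.128, 0.08 and −0.001, and those with different numbers at −0.127 to 0.06. With the number as a replicate block 3316 genes were called, and of the 10 genes again 4. In that edgeR fit the adjusted p was 0.00259 for DDIT4, 0.00207 for SESN2 and 0.000619 for CHAC1, lower than without the block. For ASNS it was 0.00117, higher than without it. The first and second libraries correlated best with their own number and the third did not, which is a hint from the data only.

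With OCT4 peaks of a −log10 q of at least 5, 1 gene had one without doxycycline (23.3% of all genes tested) instead of 6 (38.1%), and within 500 bp of the 5′ end 3 did (33.9%). In the other direction, 8 did with any annotated start counted (47.0%) and 7 within 5 kb (48.0%). In the shallowest library the counts ran from 495 (PPP1R15A) to 8090 (ATF4), and the peak lists hold no depth.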
